A study of Mus musculus with 8 samples.

Results

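The ERK feedback inhibitors examined here were 10 genes named by symbol: the dual-specificity phosphatases Dusp4, Dusp5 and Dusp6, the Sprouty genes Spry1, Spry2 and Spry4, the Sprouty-related genes Spred1, Spred2 and Spred3, and Phlda1. All 10 were found once among the 54532 genes of the count table, and all 10 passed the filter on low counts that left 15564 genes for testing. They were followed in bulk RNA-seq libraries of lung endothelial cells (ECs) from wild-type C57BL/6J mouse pups at postnatal day 14. Pups of the normoxia group (4 libraries) had been kept in room air with 21% O2, and those of the hyperoxia group (4 libraries) in 80% O2 from the day of birth. According to the study's methods, nursing dams were moved between both atmospheres every day, leukocytes were removed with CD45 beads and ECs were collected with CD31 beads. The labels do not say how many pups gave 1 library, so the p-values measure the spread between these libraries.

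Growth factor receptors with tyrosine kinase activity, such as the receptors for FGF and VEGF, switch on Ras, Raf, MEK and finally the kinase ERK. Active ERK induces its own inhibitors. DUSP phosphatases remove phosphate from MAP kinases, Sprouty and SPRED proteins restrain the steps between receptor and Raf, and transcripts of these genes are often used as a readout of ERK activity. In growing vessels this pathway takes part in sprouting, proliferation and survival. The study used these libraries to examine molecular changes of ECs under hyperoxia, among them pathways downstream of the FGF receptor FGFR1.

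Total counts ran from 16098086 to 18300730 per library and did not differ between groups beyond the spread (exact two-sided permutation p = 0.457, n = 4 each). The 10 pan-endothelial markers summed to 18668 to 20162 CPM (counts scaled to library size) in normoxia and 16939 to 18312 CPM in hyperoxia, and none was at 0 in any library. They did not move together, as 3 were higher, 4 lower and 3 not different at an adjusted p of 0.05 (median log2 fold change -0.04). Ptprb fell from 3691 to 2488 CPM, whereas Pecam1 (edgeR adjusted p 0.558) and Cdh5 (edgeR adjusted p 0.658) did not differ. Markers of other lung cells were also present and moved with the groups. Of 9 alveolar type 2 (AT2) markers 8 were higher in hyperoxia, with summed levels of 356 to 457 CPM in normoxia and 864 to 2424 CPM in hyperoxia. All 8 alveolar type 1 (AT1) markers were higher (78.9 to 99.2 against 169.9 to 485 CPM), as were 6 of 7 tested mural markers (44.5 to 79.5 against 98.7 to 173 CPM) and 4 of 7 tested fibroblast markers (155 to 308 against 207 to 577 CPM). Leukocyte markers ranged from 160.1 to 332 CPM and from 209 to 538 CPM, airway markers from 4.38 to 5.14 CPM and from 12.6 to 52.3 CPM, and mesothelial markers from 0.608 to 2.39 CPM and from 2.06 to 4.85 CPM. No AT2 or AT1 marker was at 0 in any library, while 1 airway marker was at 0 in all normoxia libraries and 1 mesothelial marker in all hyperoxia libraries. The replicate 3 hyperoxia library held the lowest AT2 signal of its group, 864 CPM against 2137 to 2424 CPM. Its AT1, airway, mural, fibroblast, mesothelial and leukocyte sums were also the lowest of the hyperoxia group, and its endothelial sum was the highest.

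All 10 genes differed between the groups at a Benjamini-Hochberg adjusted p under 0.05 in edgeR's quasi-likelihood test, but not in the same direction. Spred3, Spry4, Phlda1, Spry1, Dusp4, Spred2 and Spred1 were higher in hyperoxia, and Dusp5, Spry2 and Dusp6 were lower. The 7 higher genes stand beside 18.5% of all tested genes that were higher, and the 3 lower genes beside 17.1% that were lower. For the same 7 and 3 genes the libraries of both groups did not overlap, which was so for 17.8% (higher) and 17.6% (lower) of all genes. When a change of at least 1 on the log2 scale was also required, Spred3 and Spry4 were called, where 5.62% of all genes were called higher. No feedback inhibitor was called lower at that fold, where 1.36% of all genes were. By DESeq2 the number called lower was also 0, as it was in edgeR at an unadjusted p under 0.05. The largest fall, that of Dusp5 (-0.53 in both on the log2 scale), was short of that fold, so no p threshold could change this count. The median log2 fold change (hyperoxia minus normoxia) was 0.80 over the 10 genes and -0.004 over all genes tested.

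**Figure D1:**
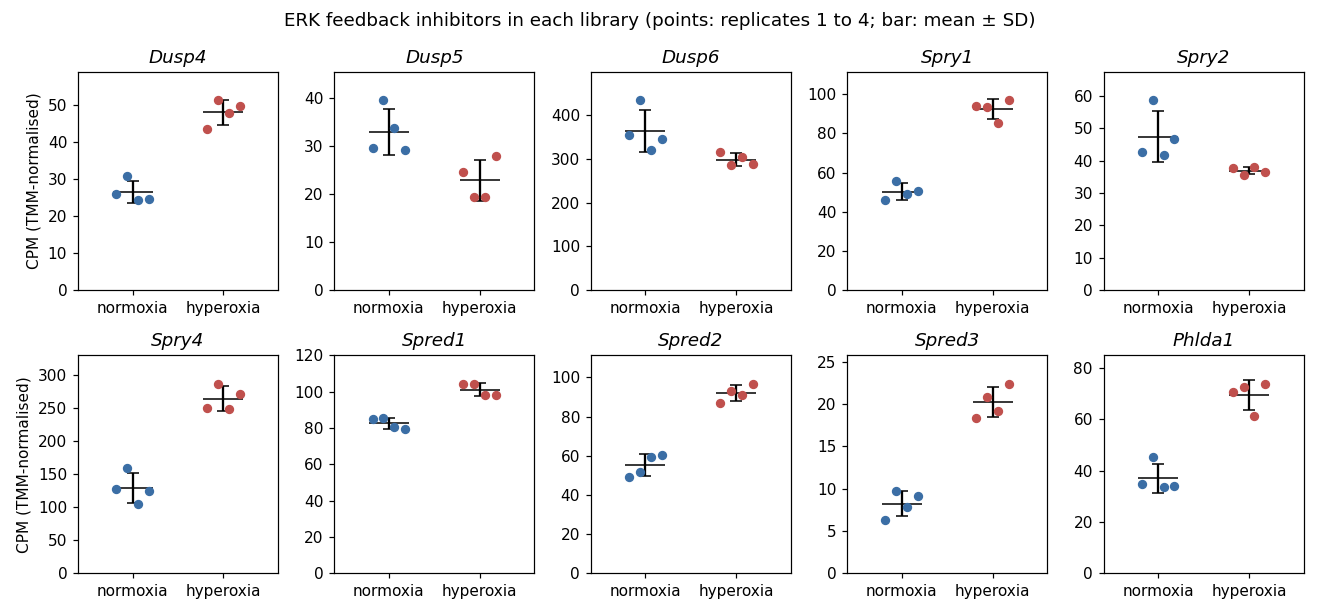
Level of each ERK feedback inhibitor in each library, in CPM on axes that start at 0. Points are libraries in the order of replicates 1 to 4, and the bar and whiskers are the mean and SD of 4 libraries. The hyperoxia libraries lie above all normoxia libraries in 7 panels and below them in those of Dusp5, Dusp6 and Spry2.

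Among the phosphatases, Dusp6 encodes a cytoplasmic enzyme that acts mainly on ERK. It lies on chromosome 10, 99263231 to 99267489 (GRCm38, plus strand, ENSMUSG00000019960), and no exon of another gene overlaps its exons. Dusp6 stood at 354, 433, 319.6 and 346 CPM in normoxia replicates 1 to 4 and at 316, 285, 304 and 288 CPM in hyperoxia replicates 1 to 4. The lowest normoxia library was close to the highest hyperoxia library, and normoxia replicate 2 lay well above the rest. The mean of Dusp6 went from 363 ± 49.0 to 298 ± 14.2 CPM (SD, n = 4 each), or -0.28 ± 0.0841 (SE) on the log2 scale with an adjusted p of 0.0225 by edgeR. This fall was the weakest of the 10 changes. Without hyperoxia replicate 2 the adjusted p was 0.0659, and without hyperoxia replicate 4 it was 0.057.

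Dusp5 encodes a nuclear phosphatase with high preference for ERK. It lies on chromosome 19, 53529109 to 53542431 (plus strand, ENSMUSG00000034765). Its level was 29.6, 39.5, 33.7 and 29.2 CPM in normoxia and 24.7, 19.5, 19.3 and 28.0 CPM in hyperoxia. The hyperoxia libraries fell into a lower pair and a higher pair, and replicate 4 came within 1.21 CPM of the lowest normoxia library. The mean fell from 33.0 ± 4.78 to 22.8 ± 4.22 CPM, or -0.53 ± 0.135 (SE) on the log2 scale with an adjusted p of 0.0109 by edgeR. AC137853.2, annotated on the other strand, covers 22.1% of its exon bases. It is not among the genes counted, so its level is not known here.

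Dusp4 encodes a nuclear phosphatase that acts on ERK and also on the stress kinases JNK and p38. It lies on chromosome 8, 34807297 to 34819894 (plus strand, ENSMUSG00000031530), free of exon overlap. The normoxia libraries held 26.02, 31.0, 24.5 and 24.6 CPM and the hyperoxia libraries 43.5, 51.4, 48.0 and 49.8 CPM. All hyperoxia values were well above the highest normoxia value. Dusp4 rose from 26.5 ± 3.07 to 48.2 ± 3.40 CPM, 1.82-fold (0.86 ± 0.0847 SE on the log2 scale, edgeR adjusted p 2.82e-05). The nuclear phosphatases Dusp4 and Dusp5 thus changed in opposite directions. Per gene length, the FPKM ratio of Dusp4 to Dusp5 within a library went from 0.729 in normoxia to 1.96 in hyperoxia, a difference of 1.40 on the log2 scale. The ratio of Dusp4 to Dusp6 rose by 1.14 on the log2 scale. For both ratios the exact permutation p (two-sided) was 0.0286, the smallest that 4 against 4 libraries can give, and 0.04 after adjustment over the 7 paralog ratios compared. Dusp4 rose and Dusp5 and Dusp6 fell without overlap of the groups, so both ratios had to separate. Their p-values therefore add nothing to the changes of the single genes. The ratio of Dusp5 to Dusp6 differed by -0.26 (exact permutation p = 0.143, adjusted 0.167).

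Promoter sequences of 7 of the 10 genes (Dusp5, Dusp6, Spry1, Spry2, Spred1, Spred2 and Spred3) were found in the RefSeq table (GRCm38.p6), each covering 250 bases before and 50 after the start site. Motifs were searched on both strands. They were the ETS core CCGGAAG, its shorter form CCGGAA (which every CCGGAAG also holds), the cAMP response element TGACGTCA, the AP-1 site TGANTCA and the CArG box bound by serum response factor. ETS factors and serum response factor are substrates or partners of ERK signalling. Dusp5 held 2 adjacent CArG boxes, from 82 to 73 and from 72 to 63 bases before the start site. A CArG box was found in 1.57% of 27025 promoters and 2 or more in 0.0185% (5 promoters). The promoter of Dusp5 is shown because it was the only one of the 7 with a CArG box, with the 250 bases before the RefSeq start site, which lies inside the gene model of the files, in lower case and the boxes in capitals, at chr19:53528895-53529144 on the plus strand.

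Dusp5: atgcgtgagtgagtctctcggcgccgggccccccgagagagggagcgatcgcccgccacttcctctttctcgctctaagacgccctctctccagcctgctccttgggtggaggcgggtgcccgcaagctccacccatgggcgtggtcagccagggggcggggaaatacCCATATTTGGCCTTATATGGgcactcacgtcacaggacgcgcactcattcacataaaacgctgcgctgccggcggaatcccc

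The ETS core, the cAMP response element and the AP-1 site were found in none of the 7 windows, and in 9.12%, 1.88% and 7.93% of all promoters. The short ETS form was found in 15.2% of all promoters and, among the 7, in Spry2, from 34 to 39 bases after the start site. A match describes the letters of the window only.

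The Sprouty proteins bind adaptors and Raf at the membrane and restrain Ras-ERK signalling from several receptors. Spry1 lies on chromosome 3, 37639947 to 37644598 (plus strand, ENSMUSG00000037211), and Spry2 on chromosome 14, 105891947 to 105896819 (minus strand, ENSMUSG00000022114). Gm42922, a gene on the other strand with a mean of 0.511 CPM, shares 24.4% of the exon bases of Spry1, and no gene shares those of Spry2. Because these paralogs moved in opposite directions, the 250 bases before their start sites are shown side by side, Spry1 at chr3:37639697-37639946 (plus strand) and Spry2 at chr14:105896820-105897069 (minus strand), both 5′ to 3′ in the direction of transcription. No searched motif lies in either stretch, and both had a GC content of 62.4%.

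Spry1: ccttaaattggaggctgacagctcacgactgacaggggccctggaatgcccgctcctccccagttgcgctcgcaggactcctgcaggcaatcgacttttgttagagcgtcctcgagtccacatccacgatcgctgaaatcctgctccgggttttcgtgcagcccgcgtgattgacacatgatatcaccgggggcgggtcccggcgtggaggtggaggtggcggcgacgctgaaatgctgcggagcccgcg
Spry2: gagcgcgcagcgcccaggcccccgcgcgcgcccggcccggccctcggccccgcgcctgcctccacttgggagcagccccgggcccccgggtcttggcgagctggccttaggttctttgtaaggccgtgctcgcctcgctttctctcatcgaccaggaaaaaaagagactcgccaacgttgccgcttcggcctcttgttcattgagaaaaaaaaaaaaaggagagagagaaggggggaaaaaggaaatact

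Spry1 stood at 45.7, 55.9, 48.8 and 50.7 CPM in normoxia and at 93.8, 93.6, 85.4 and 96.8 CPM in hyperoxia. The lowest hyperoxia library, replicate 3, was still far above the highest normoxia library. Spry1 rose from 50.3 ± 4.25 to 92.4 ± 4.88 CPM (SD, n = 4 each), 1.84-fold (0.88 ± 0.0661 SE on the log2 scale), and its edgeR adjusted p of 4.45e-06 was the smallest of the 10 genes. Spry2 stood at 42.8, 58.7, 41.6 and 46.7 CPM in normoxia and at 37.7, 35.6, 38.01 and 36.6 CPM in hyperoxia. The hyperoxia libraries were nearly equal, and the normoxia libraries were spread by replicate 2. Spry2 fell from 47.4 ± 7.79 to 37.0 ± 1.09 CPM, or -0.36 ± 0.098 (SE) on the log2 scale with an adjusted p of 0.0152 by edgeR. Within a library the FPKM ratio of Spry1 to Spry2 went from 0.768 in normoxia to 1.80 in hyperoxia. The difference was 1.23 on the log2 scale (exact two-sided permutation p = 0.0286, adjusted 0.04), so that the order of both paralogs was inverted. Because Spry1 rose and Spry2 fell without overlap, this p was fixed by their single changes.

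Spry4, the most abundant Sprouty gene per length, lies on chromosome 18, 38586268 to 38601268 (minus strand, ENSMUSG00000024427). Its level was 129, 159.9, 105 and 125 CPM in normoxia and 250.3, 288, 249 and 273 CPM in hyperoxia. Every hyperoxia library was at least 89 CPM above the highest normoxia library. Spry4 rose from 129.6 ± 22.7 to 265 ± 18.6 CPM, 2.04-fold (1.03 ± 0.108 SE on the log2 scale, edgeR adjusted p 4.51e-05). It was just past the fold required for a call, and without normoxia replicate 3 or hyperoxia replicate 2 only 1 of the 10 genes was called. The ratio of Spry2 to Spry4 fell by 1.39 on the log2 scale (exact permutation p = 0.0286, adjusted 0.04), while that of Spry1 to Spry4 differed by -0.16 (p = 0.171, adjusted 0.171, exact permutation). Without normoxia replicate 3 the latter difference was -0.08 (exact permutation p = 0.343). The p of Spry2 to Spry4 was likewise fixed by the opposite changes of both genes without overlap. Of the summed FPKM of the 3 Sprouty genes, Spry2 held 33.2 ± 0.962% in normoxia and 16.6 ± 1.20% in hyperoxia. Spry4 held 41.3 ± 2.29% and 53.8 ± 1.66%, and Spry1 25.5% and 29.6%. The sum itself was 59.2 to 81.0 FPKM in normoxia and 101.6 to 111.7 FPKM in hyperoxia. For the phosphatases the sum overlapped between the groups (123.8 to 163.3 and 117.4 to 125.5 FPKM). Dusp6 held 83.4 ± 1.05% of it in normoxia and 78.0 ± 1.80% in hyperoxia.

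**Figure D2:**
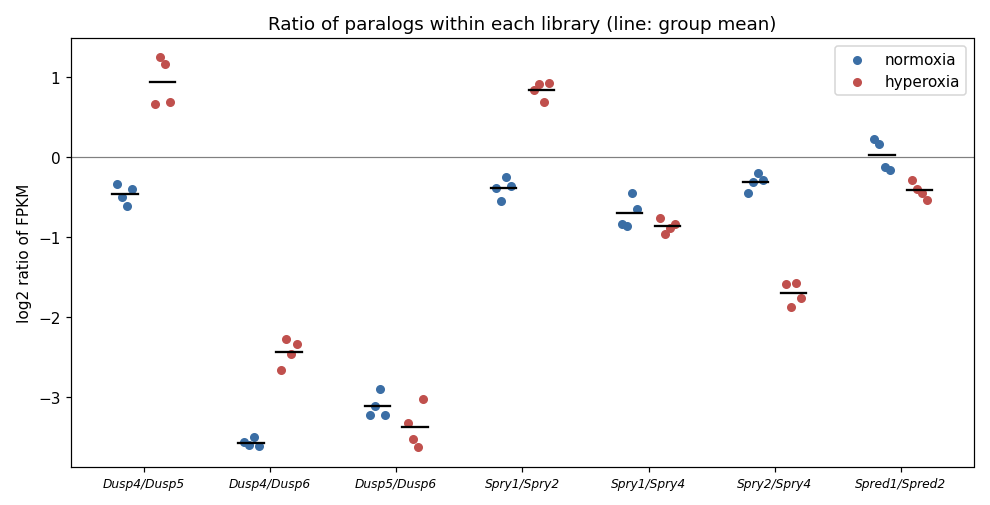
Log2 ratio of the FPKM values of 2 paralogs within each library, for the 7 ratios compared. Points are libraries (4 in each group) and lines are group means. Dusp4/Dusp5, Dusp4/Dusp6 and Spry1/Spry2 lie higher in hyperoxia, Spry2/Spry4 and Spred1/Spred2 lie lower, and the groups overlap for Dusp5/Dusp6 and Spry1/Spry4.

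SPRED proteins recruit neurofibromin to the membrane, where it returns Ras to its inactive form. Spred1 lies on chromosome 2, 117121374 to 117182279 (plus strand, ENSMUSG00000027351). It stood at 85.0, 85.3, 80.4 and 79.4 CPM in normoxia and at 104, 104, 98.0 and 97.9 CPM in hyperoxia. Libraries of a group were close to each other, so that a small rise from 82.6 ± 3.05 to 101.2 ± 3.69 CPM (0.29 ± 0.0464 SE on the log2 scale) had an adjusted p of 0.000677. Spred2 lies on chromosome 11, 19924375 to 20024026 (plus strand, ENSMUSG00000045671). It stood at 49.4, 51.8, 59.5 and 60.5 CPM in normoxia and at 86.8, 93.2, 91.0 and 96.9 CPM in hyperoxia, again without overlap. The mean of Spred2 rose from 55.3 ± 5.50 to 92.0 ± 4.19 CPM, 1.66-fold (0.73 ± 0.0704 SE on the log2 scale, edgeR adjusted p 2.39e-05). The FPKM ratio of Spred1 to Spred2 was 1.03 in normoxia and 0.751 in hyperoxia, a log2 difference of -0.45 (exact permutation p = 0.0286, adjusted 0.04). Without hyperoxia replicate 3 or replicate 4 that p was 0.0571.

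Spred3 was the least abundant of the 10 genes and the one with the largest fold change. It lies on chromosome 7, 29158829 to 29170411 (minus strand, ENSMUSG00000037239), and 3.25% of its exon bases are shared with Ggn on the other strand, which had a mean of 4.56 CPM. Its level was 6.31, 9.67, 7.89 and 9.11 CPM in normoxia and 18.4, 20.8, 19.2 and 22.4 CPM in hyperoxia, from 103 to 404 counts. Each hyperoxia library was at least 8 CPM above the highest normoxia library. Spred3 rose 2.45-fold, from 8.25 ± 1.49 to 20.2 ± 1.79 CPM (1.29 ± 0.130 SE on the log2 scale, edgeR adjusted p 3.44e-05). Its share of the summed SPRED FPKM was 5.19 ± 0.848% in normoxia and 8.53 ± 0.547% in hyperoxia, so Spred1 and Spred2 carried most SPRED transcripts in both groups.

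Phlda1 encodes a protein with a pleckstrin homology-like domain that is induced by growth factors and binds membrane lipids. It lies on chromosome 10, 111506286 to 111508645 (plus strand, ENSMUSG00000020205). The annotated Gm28592 on the other strand shares 33.0% of its exon bases and had 0 counts in every library. Phlda1 stood at 34.8, 45.3, 33.6 and 34.1 CPM in normoxia and at 70.5, 72.5, 61.2 and 73.9 CPM in hyperoxia. In both groups 3 libraries were close together and 1 stood off, replicate 2 in normoxia and replicate 3 in hyperoxia. Its mean rose from 37.0 ± 5.61 to 69.5 ± 5.75 CPM, 1.88-fold (0.91 ± 0.0998 SE on the log2 scale, edgeR adjusted p 5.91e-05).

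The levels of the 10 genes were compared with each other per gene length. In normoxia the order by mean FPKM was Dusp6 (115 ± 15.02), Spry4 (28.0 ± 4.80), Spry2 (22.5 ± 3.60), Spry1 (17.2 ± 1.38), Phlda1 (16.6 ± 2.45), Dusp5 (13.2 ± 1.86), Spred1 (12.1 ± 0.427), Spred2 (11.9 ± 1.20), Dusp4 (9.60 ± 1.07) and Spred3 (1.31 ± 0.234). Neighbours overlapped in their libraries from Spry4 to Spry2 and along the whole stretch from Spry1 to Dusp4, whereas Dusp6 and Spred3 stood apart at both ends. In hyperoxia the order was Dusp6 (94.7 ± 4.37), Spry4 (57.4 ± 4.11), Spry1 (31.6 ± 1.62), Phlda1 (31.4 ± 2.55), Spred2 (19.8 ± 0.917), Spry2 (17.6 ± 0.509), Dusp4 (17.5 ± 1.27), Spred1 (14.8 ± 0.538), Dusp5 (9.19 ± 1.67) and Spred3 (3.23 ± 0.287). Here only Spry1 with Phlda1 and Spry2 with Dusp4 overlapped as neighbours. Dusp6 remained the most abundant feedback inhibitor in both groups, but its mean FPKM was 4.10 times that of Spry4 in normoxia and 1.65 times in hyperoxia.

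Within normoxia, replicate 2 held the highest level of 9 of the 10 genes, all but Spred2, whereas it held the highest normoxia level of 28.8% of all genes tested. Without normoxia replicate 2, all 10 genes were past an adjusted p of 0.05 in the same direction, and 3 rather than 2 were called with the fold requirement. In hyperoxia no library held the highest level of more than 5 of the 10 genes. Replicate 4 held that of 5, against 23.0% of all genes tested.

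Because epithelial, mural and fibroblast markers were higher in hyperoxia, the values that bear on them are given together. In a bulk sample, fewer cells of a type and less RNA per cell cannot be told apart. The replicate 3 hyperoxia library had the lowest sum of its group for AT2 and for every other non-endothelial marker list. For Dusp4, Dusp6, Spred1, Spred2 and Spred3 it lay within the range of the other 3 hyperoxia libraries. It lay below them for Spry1 (85.4 against 93.6 to 96.8 CPM), Spry4 (249 against 250.3 to 288 CPM), Phlda1 (61.2 against 70.5 to 73.9 CPM) and Dusp5 (19.3 against 19.5 to 28.0 CPM), and above them for Spry2 (38.01 against 35.6 to 37.7 CPM). Leaving it out kept all 10 genes past the threshold in the same direction. That fit keeps the hyperoxia libraries with more non-endothelial signal, so it cannot show whether the changes depend on those markers. When the mean log2 level of the AT2 and AT1 markers entered the model as a covariate, all 10 genes kept their direction and none was past an adjusted p of 0.05 (adjusted p 0.094 for Spred2 to 0.839 for Spry2, edgeR). At an unadjusted p under 0.05 there were 6. That score itself separated the groups, and 214 genes in all were past the threshold with it, against 5535 without it. The log2 fold change of Dusp4 was then 0.85 with an SE of 0.245, against 0.86 with an SE of 0.0847, and that of Spred3 was 1.36. The estimates moved by over 1.5 times for Phlda1 (0.91 to 0.54), Spred1 (0.29 to 0.15), Spry2 (-0.36 to -0.20) and Dusp5 (-0.53 to -0.998). With a mural score Dusp4, Spry1, Spred2 and Spred3 were past the threshold, and with a fibroblast score Dusp4, Spry1, Spry4, Spred2, Spred3 and Phlda1 were. Of the genes no longer past the threshold, Dusp5 had log2 fold changes of -0.56 (SE 0.311) and -0.62 (SE 0.22) in these models and Dusp6 -0.26 (SE 0.186) and -0.29 (SE 0.133). With the mural score Spry4 stood at 0.83 (SE 0.231) and Phlda1 at 0.72 (SE 0.218), while Spred1 (0.17) and Spry2 (-0.22) moved by over 1.5 times. Which cells carried the transcripts was not tested.

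**Figure D3:**
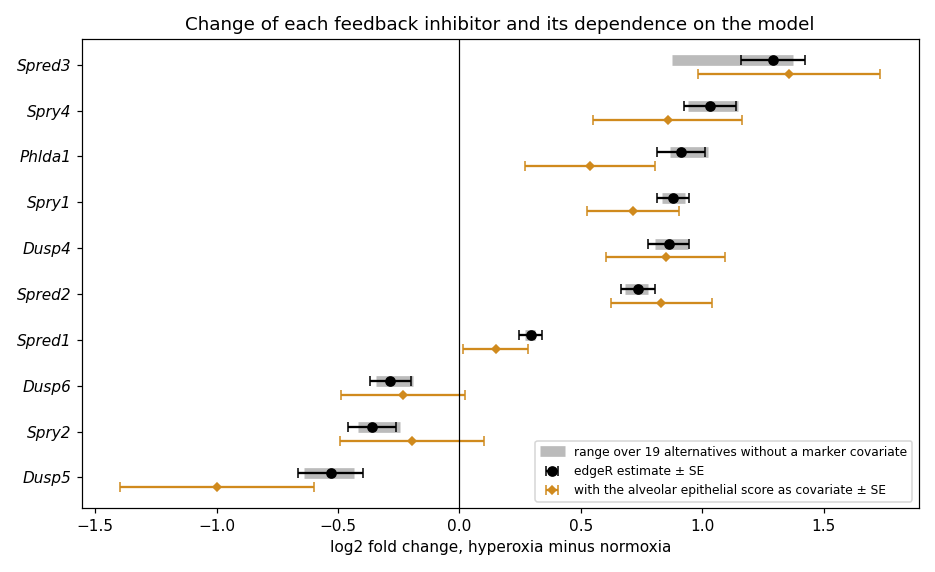
Log2 fold change of each ERK feedback inhibitor, hyperoxia minus normoxia. Black points and whiskers are the edgeR estimate and its SE, grey bars the range over 19 alternatives without a marker covariate, and orange points the estimate and SE with the alveolar epithelial score in the model. All 10 estimates keep their side of 0, and the whiskers widen with the score, from 0.0847 to 0.245 for Dusp4.

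The other genes of the pathway were read from lists of related genes. For each list, the counts higher and lower stand beside 18.5% and 17.1% of all tested genes at an adjusted p under 0.05. Of the 6 tested MAP kinase phosphatases beside the 3 above, 3 were higher, 1 was lower and 2 were not past the threshold. Dusp16 and Dusp8, which act mainly on the stress kinases, rose with log2 fold changes of 0.74 (adjusted p 0.00472) and 0.53 (adjusted p 0.0208). The libraries of Dusp8 overlapped between groups. Dusp1, the most abundant per gene length, went from 568 ± 42.9 to 668 ± 56.7 CPM (0.23 on the log2 scale, adjusted p 0.0255). Thus the rise of Dusp4 was larger in its estimate than that of any of these genes, a difference that was not tested.

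Of 11 tested negative regulators outside the 10 genes, 2 were higher, 5 were lower and 4 were not past the threshold, with a median log2 fold change of -0.25. Phlda3, a relative of Phlda1 and a known p53 target, rose from 54.7 ± 3.69 to 245 ± 21.5 CPM (2.16 on the log2 scale, adjusted p 2.9e-08). Lrig3, a transmembrane regulator of receptor tyrosine kinases, fell with a log2 fold change of -1.48 (adjusted p 5.73e-05). Il17rd, named after its values were seen, fell from 180 to 101 CPM (log2 fold change -0.83, edgeR adjusted p 4.09e-05). The Ras GTPase-activating protein gene Rasa1 fell (log2 fold change -0.35, adjusted p 0.000118), and the ubiquitin ligase gene Cbl stood at 195 and 173 CPM (adjusted p 0.0683).

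Among the receptor tyrosine kinases, 8 of 18 were higher and 5 were lower. Fgfr1 rose (44.5 ± 6.90 to 101.8 ± 8.31 CPM, 1.19 on the log2 scale) and Kit fell (939 ± 95.4 to 384 ± 59.5 CPM, -1.29 on the log2 scale). Kdr, the main VEGF receptor of ECs, rose from 1956 to 2222 CPM (0.18 on the log2 scale, adjusted p 0.00705), and Tie1, an endothelial receptor related to the angiopoietin receptor, fell (log2 fold change -0.18, adjusted p 0.00451). The 23 adaptors, Ras, Raf, MEK, ERK and RSK genes had a median log2 fold change of 0.000837, with 8 higher, 5 lower and none past a fold of 1 on the log2 scale. Mapk3, which encodes ERK1, stood at 492 ± 26.7 and 492 ± 4.27 CPM (adjusted p 0.991). The largest changes in this list were the falls of Sos1, a Ras activator, and of the scaffold gene Ksr1, with log2 fold changes of -0.38 and -0.36.

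Transcripts that ERK commonly induces were also mixed, with 6 of 15 higher, 2 lower and 7 not past the threshold (median log2 fold change 0.17). With a log2 fold change of at least 1 also required, 4 were called higher and 0 lower, beside 5.62% and 1.36% of all genes. The 4 were Etv4, Etv5, Ccnd1 and Etv1. Ccnd1 and Etv1, named after their values were seen, had log2 fold changes of 1.16 (264 to 590 CPM, edgeR adjusted p 1.02e-06) and 1.03 (edgeR adjusted p 0.000324). Among genes of the list with a mean of at least 5 CPM, the largest log2 fold changes were those of Etv4 and Etv5. These are ETS factors of the PEA3 group that follow FGF signalling in many tissues. Etv4 reached that mean (5.47 CPM) only through its hyperoxia libraries. Etv4 stood at 1.90, 1.31, 1.85 and 1.602 CPM in normoxia and at 8.51, 10.5, 8.70 and 9.43 CPM in hyperoxia (log2 fold change 2.48, adjusted p 1.28e-06). Etv5 stood at 9.43, 7.74, 10.5 and 9.67 CPM in normoxia and at 26.9, 29.2, 18.3 and 27.0 CPM in hyperoxia (log2 fold change 1.44, adjusted p 4.06e-05). Hyperoxia replicate 3 was within the other hyperoxia libraries for Etv4 and below them for Etv5. The immediate early genes Junb and Fos, which had the most counts of the list, had log2 fold changes of -0.09 (adjusted p 0.222) and 0.20 (adjusted p 0.0252). Ier3, another immediate early gene, had the highest mean FPKM of the list in normoxia (675) and fell to 417 FPKM in hyperoxia (log2 fold change of the counts -0.70, adjusted p 0.000131). It was named after its values were seen. Of 7 other ETS factors of the endothelium or of ERK signalling, 5 were lower and 1 was higher. Ets1 fell from 894 ± 46.3 to 650.2 ± 28.1 CPM (-0.46 on the log2 scale, adjusted p 7.5e-05), Ets2 fell with a log2 fold change of -0.20 and Fli1 rose with 0.41.

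**Figure D4:**
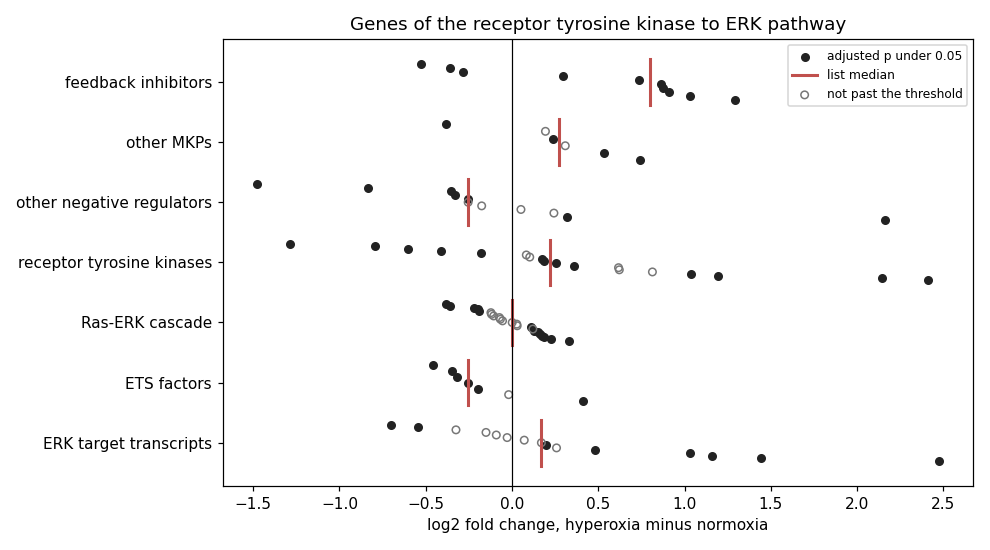
Log2 fold change, hyperoxia minus normoxia, of every tested gene in 7 lists of the pathway from receptor tyrosine kinases to ERK. Filled points have an edgeR adjusted p under 0.05, open points do not, and red lines are list medians. The median is 0.80 for the feedback inhibitors, 0.17 for ERK target transcripts and 0.000837 for the Ras-ERK cascade.

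The genes most like the feedback inhibitor with the largest rise and the one with the largest fall were sought among 9076 other protein-coding genes with a mean of at least 10 CPM, by the root mean square difference of log2 CPM from the normoxia mean over the 8 libraries. Nearest to Spred3 were Add2 (0.108), Per1 (0.119) and Noct (0.132). Nearest to Dusp5 were Rab3il1 (0.0959), Micu3 (0.11) and Cirbp (0.127). The measure includes the change between groups, so by construction it favours genes with a like fold change. Add2, Per1 and Noct had log2 fold changes of 1.25, 1.16 and 1.24. Those of Rab3il1, Micu3 and Cirbp were -0.53, -0.51 and -0.45. The measure describes these libraries only.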

How the data were processed

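Bulk RNA-seq was available for 8 libraries of lung ECs, grouped by their titles into normoxia and hyperoxia. The authors deposited whole-number gene counts and FPKM values (fragments scaled to gene length and library size) for the same genes. The submitters' processing notes name HISAT2 2.0.5, featureCounts 1.5.0-p3 and the mouse build mm10. The use of strand and the treatment of shared reads are not given in the sources used here, so reads of a gene and of an overlapping gene on the other strand may not have been told apart. Of the deposited gene identifiers 54409 were found in GENCODE M21 (GRCm38), 98.3% of them at the same coordinates.

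Counts were tested with edgeR 4.0.16 in R 4.3.3 (quasi-likelihood test, TMM, filterByExpr, group as the only term), adjusted by Benjamini-Hochberg over 15564 genes. CPM uses TMM-scaled library sizes. FPKM served for levels between genes and for paralog ratios, which were compared by exact permutation. Alternatives used DESeq2 1.42.0, limma 3.58.1, other scalings and filters, log2 of FPKM with 0.1 or 1 added, a replicate block, each library left out and 3 marker scores as covariates. The scripts were tested on simulated data. The genes, lists and rules (pathway genes with the 2 largest changes at 5 CPM or more, the 2 with the highest mean CPM, and the 3 nearest in likeness) were chosen with earlier results of these data known. The values of 1 gene that the rule names are not reported here.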

Additional observations from a re-analysis of the deposited data

Results flagged for a closer look

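The level of Phlda1 in normoxia replicate 2 was 45.35 CPM, while the other 3 normoxia libraries lay between 33.62 and 34.84 CPM. Its gap to the nearest library made up 0.896 of the whole range of the group, which is past the limit of Dixon's test for 4 values. The test was applied to each of the 10 genes in each group, 20 times in all, and 1 value was past the limit. Chance alone gives about 1 in 20.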

How the results depend on the processing

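Of 22 alternatives, 17 left all 10 feedback inhibitors past an adjusted p of 0.05, and no value of the 10 genes changed sign. With the replicate block 7 genes were higher and 3 lower, as without it. Same-numbered libraries did not deviate together (correlations -0.14 to 0.119), so the numbers were not read as pairs. The block changed no call of the 10 genes. Over all genes, 4792 were past the adjusted p with it against 5535 without it, and 1057 against 1087 were called. Outside the covariate models, only Dusp6 was lost, without hyperoxia replicate 2 (log2 fold change -0.26) or replicate 4 (-0.27). Leaving out single libraries gave 1 to 3 genes called higher with the fold requirement. With 1 added to FPKM, 1 of the 10 was called higher, and 330 genes in all against 1087. The alveolar epithelial score left 0 higher, 0 lower and 0 called genes of the 10, and over all genes 214 past the adjusted p and 160 called. The mural score left 4 higher, 0 lower and 1 called, and 746 and 316 genes in all. The fibroblast score left 6 higher, 0 lower and 1 called, and 2303 and 632 genes in all. At an unadjusted p under 0.05, these models gave 6, 6 and 8 of the 10 in edgeR, and DESeq2 was not run with them. The cause was not tested. Of the 63 recomputed paralog ratios none changed sign. Dusp5/Dusp6 reached an exact permutation p of 0.0286 without hyperoxia replicate 4 (difference -0.38). Over the other scalings, the median of all genes moved by less than 0.1 (log2), and at 103 or more counts in every library depth did not limit detection of the 10 genes.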
